A study of Polistes dominula with 96 samples.

Results

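Jhbp16 (LOC107064519) was 1 of 11140 genes measured in the brains of *Polistes dominula*, a primitively eusocial paper wasp whose workers can take over reproduction when the queen is lost. It was selected by its gene ID, with its levels in queens, control workers and queen removal individuals already known, so those levels are described here without a test. The name rests on a reference gene table, which carries the symbol Jhbp16 for a juvenile hormone-binding protein. The product name in the study's own annotation was an uncharacterized protein.

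RNA of 96 single brains was sequenced, with no pooling. The wasps belonged to 4 groups: 26 queens (foundresses that headed a nest), 12 workers from control nests that kept their queen, and 24 and 34 individuals from nests sampled 3 and 12 days after the queen was removed. The last 2 groups are called queen removal individuals and numbered 58. The study picked them by stratified random sampling to span its values of ovary development, dominance and queen-likeness. Queens and control workers were drawn at random. Levels, shares and relations among the 58 therefore need not be those of queenless workers in general. The queens comprised 14 that stayed on control nests and 12 that were removed from the nests later sampled. Control nests had a sham removal and were followed for 3 or 12 days, and both times are pooled here. All nests were collected before workers emerged and were kept in the laboratory with water, cardboard and fly larvae as food, and extra foundresses had been taken out. Control workers were 1 to 23 days old (median 11.5), day 3 individuals 3 to 33 days (median 13) and day 12 individuals 3 to 28 days (median 18.5). The labels give no age for queens, but as overwintered foundresses they were months old, older than any worker, so caste and age cannot be told apart between queens and the other groups. The 58 were nestmates in part, drawn from 8 nests of day 3 and 10 of day 12, and nestmates share their colony. Most control workers also carried the nest number of a sampled queen, a pairing that the main fit did not use.

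Juvenile hormone is made by the corpora allata, small glands behind the insect brain, and travels through the blood bound to carrier proteins. Proteins of the juvenile hormone-binding and takeout family are small and secreted, and hold lipids in a hydrophobic pocket. In *Polistes* females, the hormone promotes egg development and is linked to dominance over nestmates. Kr-h1, a zinc finger transcription factor, is induced by the hormone through its receptor and is widely read as a sign of hormone action.

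Libraries held between 7933671 and 18124755 counts, with group medians of 10437136 in queens, 13212068 in control workers, 13355627 at day 3 and 13377402 at day 12. Levels are given as CPM (counts scaled to library size) after TMM scaling, a correction for differences in library composition. Jhbp16 was a rare transcript in these brains. It had 543 counts over all 96 libraries together and no count in 39 of them. The level of 3 counts lay between 0.166 and 0.378 CPM depending on the library, and values below it could not be told from 0 at this depth. In whole brains, a difference in the number of cells of a type and a difference in RNA per cell cannot be told apart.

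Jhbp16 was highest in queens. Its level there ranged from 0 to 3.55 CPM with a median of 0.614 CPM, and the mean was 1.04 ± 0.977 CPM (SD, n = 26). Of the 26 queens, 19 had more than 3 counts and 4 had none. In control workers it ranged from 0 to 0.531 CPM with a median of 0 and a mean of 0.108 ± 0.167 CPM (SD, n = 12). Only 2 of the 12 control workers had more than 3 counts, and 7 had none. The groups overlapped at the low end, since 16 of 26 queens lay above the highest control worker, while no control worker reached the queen median.

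Queen removal individuals were mostly as low as control workers, with a few wasps at queen levels. At day 3 the level ranged from 0 to 5.97 CPM with a median of 0 and a mean of 0.370 ± 1.22 CPM (SD, n = 24), and 14 wasps had no count. At day 12 it ranged from 0 to 1.17 CPM with a median of 0.156 CPM and a mean of 0.266 ± 0.351 CPM (SD, n = 34), and 14 wasps had no count. More than 3 counts were seen in 4 day 3 and 11 day 12 individuals. Of the 58, 8 lay above the queen median (2 from day 3 and 6 from day 12), and 9 lay above the highest control worker. The highest value of all 96 libraries, 5.97 CPM from 77 counts, belonged to a day 3 individual 30 days old from nest 47. Without her the day 3 maximum was 1.05 CPM and the mean 0.127 ± 0.253 CPM (SD, n = 23). In the order of the medians, queens stood above day 12 individuals, and below those the day 3 individuals and control workers had the same median of 0. The 3 lower groups overlapped from 0 to 0.531 CPM, the highest control worker, and the 9 wasps above that level were 3 of day 3 and 6 of day 12.

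**Figure D1:**
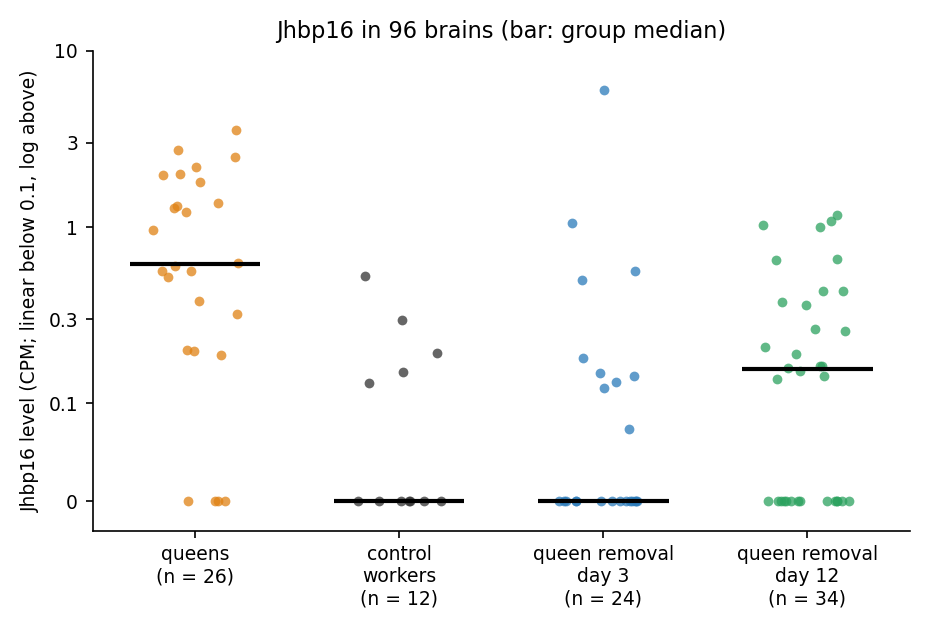
Jhbp16 level in CPM for each of 96 brains (points), with the median of each group as a bar. The vertical axis is linear below 0.1 CPM and logarithmic above. The queen median of 0.614 CPM lay above all 12 control workers, and 1 day 3 individual stood at 5.97 CPM.

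The fitted log2 fold change, control workers minus queens, was -3.18 (SE 0.83). It was -1.69 (SE 0.44) for queen removal individuals minus queens and -2.42 (SE 0.40) without the highest day 3 individual. For queen removal individuals minus control workers it was 1.49 (SE 0.78), 0.76 (SE 0.70) without her and 0.69 (SE 0.73) by limma voom with nest as a random effect. These values share their queens and control workers, and they come from the same levels by which the gene was known. In the same fit with edgeR's quasi-likelihood test, control workers had lower levels than queens for 11.8% of 10794 genes, and queen removal individuals differed from queens in either direction for 30.2%. The share higher in queen removal individuals than in control workers was 0.148% (16 genes against 14 lower, and 137 against 23 with DESeq2).

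Queens of the queen removal nests had been taken from their nests. Jhbp16 in these 12 queens had a median of 0.474 CPM (range 0 to 3.55) and in the 14 queens of control nests a median of 1.09 CPM (range 0 to 2.74). The difference in mean log2 CPM, removal nests minus control nests, was -0.52 (SE 0.56), and a two-sided permutation test with 100000 permutations gave p = 0.35. The ranges of the queens overlapped almost wholly.

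The days after removal were compared to ask whether Jhbp16 moved as queenless nests settled. The log2 fold change, day 12 minus day 3, was -0.47 (SE 0.54, adjusted p = 0.81 by edgeR, over 10794 genes). The sign turned to 0.99 (SE 0.54, adjusted p = 0.454 by edgeR) without the highest day 3 individual, and to 1.12 (adjusted p = 0.377 by edgeR) without her whole nest. It was 0.37 (SE 0.64, adjusted p = 0.945) by limma voom with nest as a random effect and all wasps kept. A change between the days was therefore not detectable, and its direction was not stable, although DESeq2 with all wasps kept the sign (-0.49, SE 0.65).

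Among the 58 queen removal individuals, Jhbp16 was compared with age, with the ovarian index and with the Elo score. The ovarian index is a measure of ovary development from dissection, and the Elo score is a rating of dominance from fights won and lost on video. Age came from the labels and the other measures from the study's data on each wasp. Age, ovarian index and Kr-h1 were named as comparisons when the gene was chosen, so the p-values, adjusted over all genes, are not independent of that choice. The 3 measures were themselves related, with r = 0.417 between age and ovarian index, 0.410 between Elo score and ovarian index and 0.246 between age and Elo score, each after removing the difference between days.

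Jhbp16 rose with age. With day as a covariate, the log2 level increased by 1.43 (SE 0.26) per SD of age (7.45 days), with adjusted p = 5.93e-05 by edgeR, and 3.18% of genes rose with age at that threshold. The 3 oldest day 3 individuals, aged 28, 30 and 33 days, had 0.502, 5.97 and 0.560 CPM. The slope was 0.93 (SE 0.27, adjusted p = 0.0195 by edgeR) without the highest wasp, and 1.00 (SE 0.27, adjusted p = 0.0173 by edgeR, where 1.85% of genes rose) with ovarian index as a further covariate. On log2 CPM, Pearson's r was 0.511 (p = 4e-05) and Spearman's rho 0.466 (p = 0.0002) by permutation over the 58 wasps, with adjusted p = 0.000187 and 0.00107 over 14 relations. The coefficient was 0.478 without the 2 wasps of most extreme age. Permuting wasps only within their nests gave p = 0.00062 for r and 0.0134 for rho, so the relation was also seen among nestmates. Within day 12, r was 0.499 (permutation p = 0.00282) and 0.453 without the 2 most extreme ages. Within day 3, r was 0.528 (permutation p = 0.0048) and fell to 0.311 without the 2 most extreme ages.

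Nestmates showed the same order. In 14 nests with wasps of more than 1 age, the oldest sampled wasp was above the mean of her nestmates in 10, below it in 2 and equal to it in 2. Looked up after the values were seen, 8 of the 9 highest queen removal individuals were the oldest sampled wasp of their nest, and the other, of nest 4, was 24 days old like both of her sampled nestmates. In nest 3 of day 12, the wasp of 25 days had 1.17 CPM and her nestmates had a mean of 0.0815 CPM. In nest 69 of day 3, all 4 wasps had no count. A difference between whole nests was not detectable, since 22.4% of the variance of log2 CPM lay between the 18 nests and permuting wasps within a day gave p = 0.736.

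In the 12 control workers, the relation with age was not detectable. Pearson's r was 0.329 and Spearman's rho 0.344 (permutation p = 0.30 and 0.276), r was 0.477 without the 2 most extreme ages, and the edgeR slope per SD of age was 0.66 (SE 0.62, adjusted p = 0.674). With 17 counts in all 12 libraries together, depth limits this comparison.

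**Figure D2:**
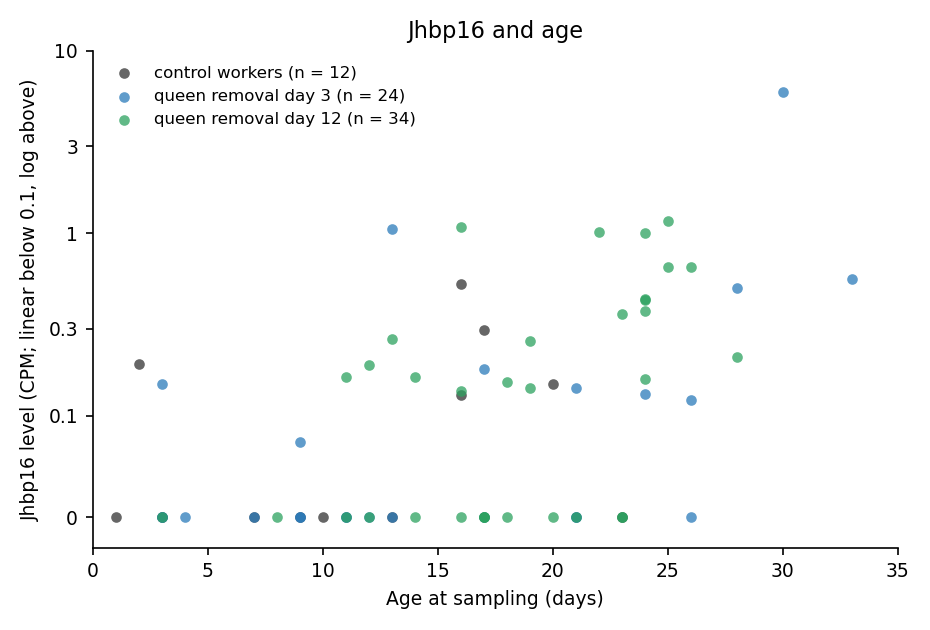
Jhbp16 level (CPM, linear below 0.1 and logarithmic above) against age in days, for 12 control workers and 58 queen removal individuals of day 3 and day 12. Wasps over 1 CPM were 13 to 30 days old, and wasps without a count occurred at most ages.

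Jhbp16 also rose with ovarian index, by 1.48 (SE 0.26) per SD on the log2 scale with day as a covariate (adjusted p = 0.000336 by edgeR). Only 0.185% of genes rose with ovarian index (20 rose and 9 fell, against 31 and 33 with DESeq2), and Jhbp16 had the 11th smallest p-value of 10794 genes. The slope was 1.09 (SE 0.24, adjusted p = 0.0119 by edgeR) without the highest wasp. With age as a further covariate it was 1.03 (SE 0.27) and no longer passed the threshold (adjusted p = 0.104 by edgeR). Pearson's r was 0.549 (permutation p = 1e-05, the lowest value possible with 100000 permutations) and Spearman's rho 0.564 (permutation p = 2e-05), with adjusted p = 7e-05 and 0.00028 over the 14 relations. The coefficient was 0.535 without the 2 most extreme wasps, and permuting within nests gave p = 1e-05 for r and 4e-05 for rho. Within day 3, r was 0.539 (permutation p = 0.00363) and 0.309 without the 2 most extreme wasps, and within day 12 it was 0.589 (permutation p = 0.00037) and 0.567. A test of the difference between the slopes of day 12 and day 3 gave -1.64 (SE 0.61, unadjusted p = 0.0098, adjusted p = 0.989 by edgeR).

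Dominance gave the relation with the highest rank among genes. The log2 level of Jhbp16 rose by 1.38 (SE 0.20) per SD of Elo score (adjusted p = 7.12e-06 by edgeR), the 4th smallest p-value of 10794 genes, where 0.167% of genes rose (18 rose and 1 fell, against 15 and 7 with DESeq2). With age as a covariate the slope was 1.13 (SE 0.19, adjusted p = 0.000609 by edgeR, where 0.12% of genes rose), and with age and ovarian index it was 0.96 (SE 0.22) and did not pass the threshold (adjusted p = 0.133 by edgeR). It did not pass without the highest wasp either, at 0.99 (SE 0.22, adjusted p = 0.0834 by edgeR). Pearson's r was 0.595 (permutation p = 1e-05) and Spearman's rho 0.410 (permutation p = 0.0015), with adjusted p = 7e-05 and 0.00495, and r was 0.480 without the 2 most extreme scores. Permuting within nests gave p = 1e-05 and 0.00127. Within day 12, r was 0.539 and rho 0.522 (permutation p = 0.00079 and 0.00183), and r was 0.535 without the 2 most extreme scores. Within day 3, r was 0.648 (permutation p = 0.00186) but rho was 0.313 (permutation p = 0.137) and r was 0.313 without the 2 most extreme scores, so the relation at day 3 rested on those wasps.

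**Figure D3:**
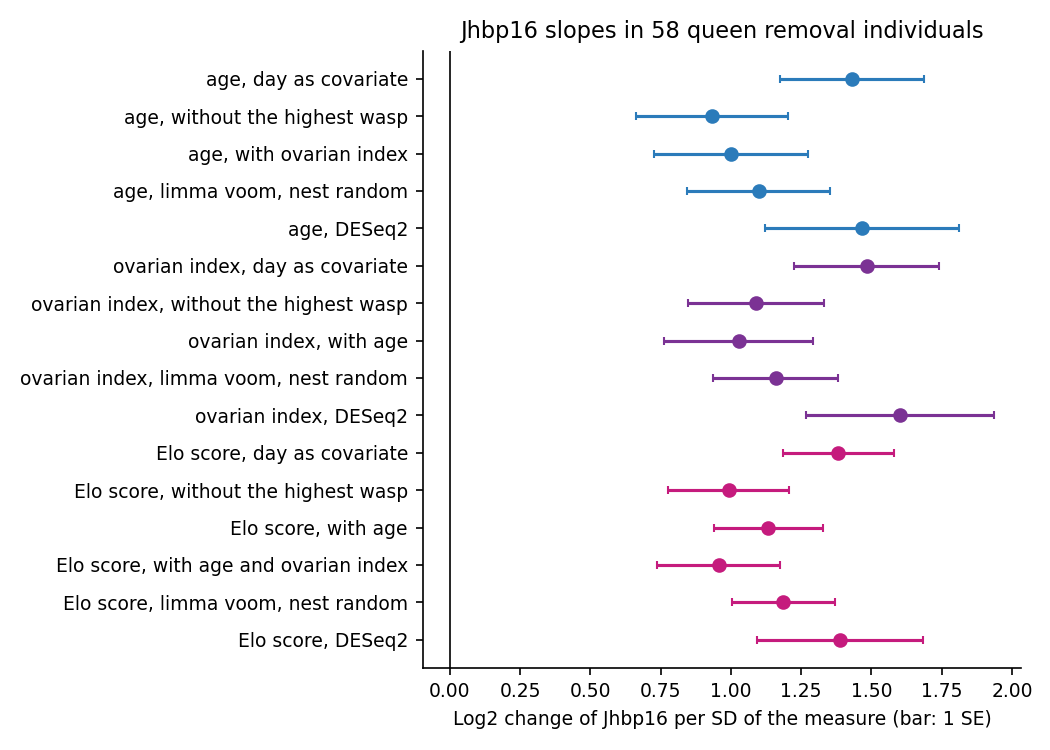
Log2 change of Jhbp16 per SD of age, ovarian index and Elo score in 58 queen removal individuals (57 without the highest wasp), with bars of 1 SE, under different covariates and tools. Slopes with day as the covariate were 1.43, 1.48 and 1.38, and they were 0.93, 1.09 and 0.99 without the highest wasp.

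Kr-h1 (LOC107064343) had a far wider range than Jhbp16. In queens it ranged from 0.199 to 159 CPM with a median of 69.3 CPM, and in control workers from 0.145 to 4.37 CPM with a median of 0.634 CPM. Queen removal individuals reached from 0.159 to 141 CPM with a median of 2.33 CPM. They fell into 2 separate sets, with 41 wasps at or below 9.74 CPM, 17 wasps at or above 30.5 CPM and none between. Both days were found in both sets (17 day 3 and 24 day 12 wasps in the lower, 7 and 10 in the higher). The name Kr-h1 rests on the reference symbol only, and a different gene, LOC107064302 (symbol dati), has the product name Krueppel homolog 1-like.

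Because of these sets, the relation was tested within each set and not over the 58 together. Between the sets, 26 of the 41 lower wasps had no Jhbp16 count, against 2 of the 17 higher wasps. That difference is a description and was not tested. In the lower set, r between log2 CPM of Kr-h1 and Jhbp16, centred on the day, was 0.309 and rho 0.287 (permutation p = 0.05 and 0.0701, adjusted p = 0.0637 and 0.105 over 14 relations), with r = 0.427 without the 2 most extreme wasps. Most wasps of the lower set with any Jhbp16 count had 3 or fewer, so these coefficients carry counting error and rest on few wasps. In the higher set, r was 0.604 and rho 0.446 (permutation p = 0.00967 and 0.075, adjusted p = 0.0135 and 0.105). That r fell to 0.308 without the 2 most extreme wasps and to 0.426 (permutation p = 0.10) without the highest Jhbp16 wasp, so it rested on few wasps. In queens r was 0.249 and rho 0.305 (permutation p = 0.237 and 0.129), and in control workers r was 0.0292 and rho 0.0936 (permutation p = 0.927 and 0.774), with r = 0.262 and 0.0254 without the 2 most extreme wasps.

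The wasps highest in Jhbp16 can be read one by one. The day 3 individual with 5.97 CPM of Jhbp16 had 138 CPM of Kr-h1, the 2nd highest of the 58. The day 12 individual with the highest Kr-h1, 141 CPM, had 0.658 CPM of Jhbp16. The 3rd highest wasp in Jhbp16, at 1.08 CPM and 16 days old, had only 4.98 CPM of Kr-h1. Of the 9 highest queen removal individuals in Jhbp16, 8 were in the higher Kr-h1 set.

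**Figure D4:**
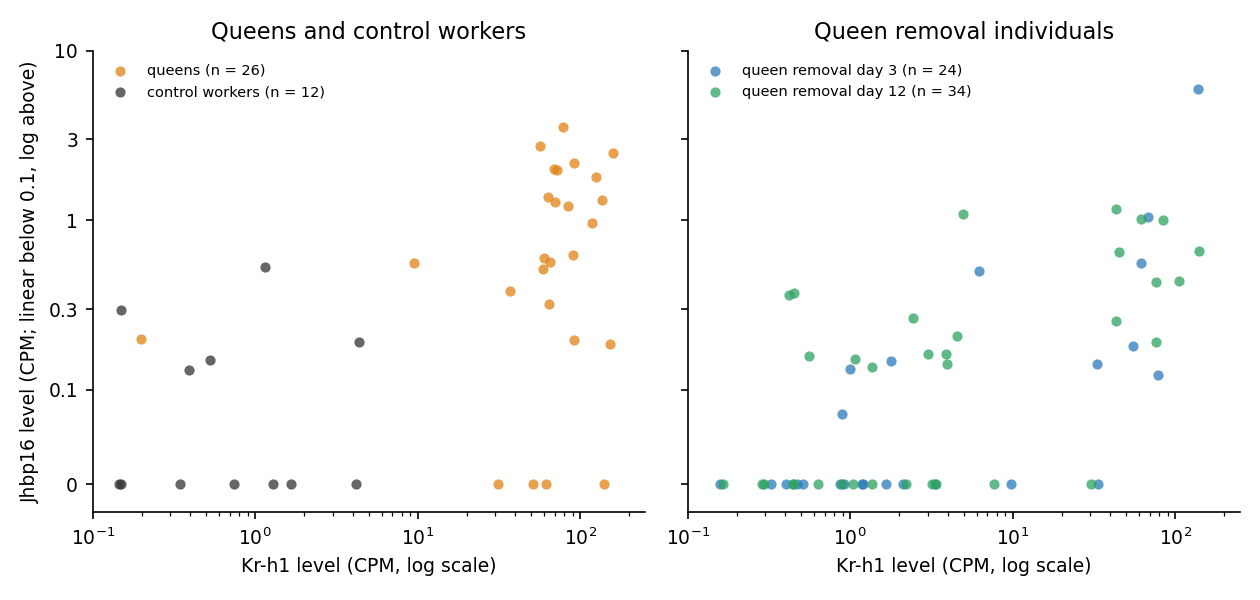
Jhbp16 against Kr-h1 in CPM, for 26 queens and 12 control workers (left) and 58 queen removal individuals (right). The Kr-h1 axis is logarithmic and the Jhbp16 axis is linear below 0.1 CPM and logarithmic above. On the right, no wasp lay between 9.74 and 30.5 CPM of Kr-h1.

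Jhbp16 was compared with 3 other genes of its family. These were Jhbp2 (LOC107065366) and 2 genes with the product name circadian clock-controlled protein-like (LOC107065115 and LOC107065276), a name used for relatives of takeout. In the gene order of the reference table, Jhbp2 was next to Jhbp16, LOC107065115 was 2 places and LOC107065276 5 places away on the same side.

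LOC107065115 and LOC107065276 ran opposite to Jhbp16 between queens and queen removal individuals. Both were higher in queen removal individuals than in queens by edgeR, where 15.2% of all genes were higher. Both also passed with DESeq2, and with limma voom and nest as a random effect. Jhbp2 is left out of this count. It had no count in queens, and the filter on low counts kept it only through its 40 counts at day 12. Its direction against queens was therefore fixed in advance. LOC107065115 ranged from 27.3 to 1385 CPM in queens (median 169 CPM) and from 30.3 to 5513 CPM in queen removal individuals (median 683 CPM). Its groups overlapped, and its log2 fold change, queen removal individuals minus queens, was 1.88 (SE 0.45, adjusted p = 0.000645 by edgeR). LOC107065276 ranged from 0 to 3.59 CPM in queens (median 0.254 CPM) and from 0 to 5.65 CPM in queen removal individuals (median 0.949 CPM), with a log2 fold change of 1.39 (SE 0.39, adjusted p = 0.0039 by edgeR). In the same direction, LOC107065276 was higher in control workers than in queens, with a log2 fold change of 2.41 (SE 0.50, adjusted p = 0.000161 by edgeR) and a median of 1.12 CPM in control workers. In control workers 11.1% of all genes were higher than in queens, and LOC107065115, at 1.40 (SE 0.57, adjusted p = 0.064 by edgeR), was not among them.

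Jhbp2 was not detected in queens, with 0 counts in all 26 libraries. It had 5 counts over the 12 control workers and 56 counts over the 58 queen removal individuals, of which 5 wasps had more than 3 counts and the highest had 14. The edgeR test placed it above queens in queen removal individuals (adjusted p = 0.00247), while DESeq2 (adjusted p = 0.257) and limma voom with nest as a random effect (adjusted p = 0.418) did not. With queens at 0, only a higher level was possible, so these calls say nothing about direction. The fitted fold change against a group at 0 depends on the settings of the fit and is not given.

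With age, ovarian index and Elo score, the slopes of the relatives were negative where that of Jhbp16 was positive. Per SD of age, Jhbp2 fell by 0.95 on the log2 scale (SE 0.31, adjusted p = 0.0429 by edgeR), among the 5.05% of genes that fell with age. That call was lost without the highest Jhbp16 wasp (adjusted p = 0.0515 by edgeR), without a wasp whose name and listed nest differ (slope -0.35, adjusted p = 0.574 by edgeR) and with limma voom (adjusted p = 0.26). The slope per SD of ovarian index was -0.57 (SE 0.17, adjusted p = 0.143 by edgeR) for LOC107065276. For LOC107065115, the slope per SD of Elo score was -0.81 (SE 0.22, adjusted p = 0.184 by edgeR). The other slopes of LOC107065115 and LOC107065276, and those of Jhbp2 on ovarian index and Elo score, lay between -0.56 and -0.18 and did not pass the threshold either. DESeq2 placed 1 relative past the threshold for ovarian index (LOC107065276, adjusted p = 0.0487) and 1 for Elo score (LOC107065115, adjusted p = 0.0395).

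**Figure D5:**
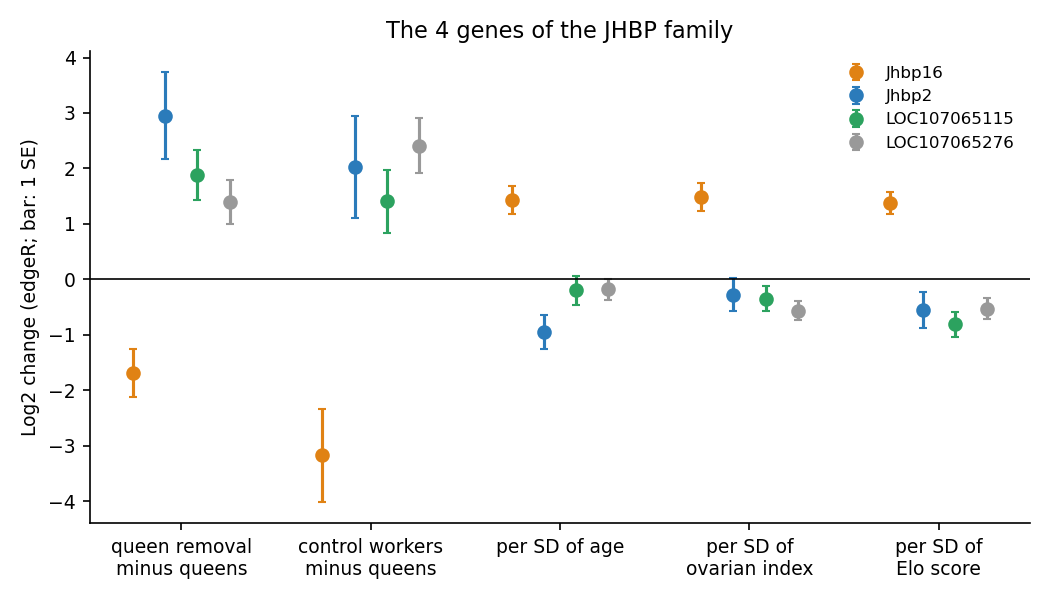
Log2 change with bars of 1 SE for Jhbp16, Jhbp2, LOC107065115 and LOC107065276, between groups (queen removal individuals minus queens, control workers minus queens) and per SD of age, ovarian index and Elo score. Jhbp16 lay on the other side of 0 from LOC107065115 and LOC107065276 in all 5, and from Jhbp2 in the slopes. Jhbp2 had no count in queens, so the side of its values against queens was fixed in advance. The size of those values depends on the settings of the fit.

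The genes between and beside the family members did not all move alike. LOC107065267, an uncharacterized gene 4 places away between the relatives and picked after its values were seen, was higher in control workers than in queens by 2.97 (SE 0.51, adjusted p = 7.9e-06 by edgeR) and in queen removal individuals by 1.90 (SE 0.41, adjusted p = 0.000144), and its slope per SD of ovarian index was -0.73 (SE 0.17, adjusted p = 0.0374 by edgeR, where 0.0834% of genes fell). LOC107069540, also between them, was higher in queen removal individuals than in queens by 2.26 (SE 0.47, adjusted p = 9e-05 by edgeR). On the far side, the gene next to Jhbp16, LOC107063925 (uncharacterized), had a log2 fold change, control workers minus queens, of -1.65 (SE 0.40, adjusted p = 0.0014 by edgeR). It rose with Elo score by 0.45 per SD (SE 0.09, adjusted p = 0.00818 by edgeR), the same direction as Jhbp16. For control workers minus queens, LOC107063977, 2 places away, stood at -0.23 (SE 0.41, adjusted p = 0.723 by edgeR). Archease, which in other organisms aids the joining of RNA ends, stood at -0.28 for control workers minus queens (SE 0.07, adjusted p = 0.00184 by edgeR). The authors' counting by strand is not given in the sources used here, and sharing of reads between close genes was not tested.

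Jhbp16 was set beside 28 genes of the juvenile hormone pathway and its partners. This list, which holds Kr-h1, was chosen with earlier results of these data known, so its counts beside the shares of all genes are descriptions. Against queens, 10 of these were lower in control workers and 14 in queen removal individuals, where 11.8% and 15% (1616 of 10794) of all genes were lower, and in neither contrast was any of the 28 higher. Their median log2 fold changes were -0.22 and -0.15, against 0.01 over all genes in both. At an unadjusted p under 0.05, 14 and 15 of the 28 differed in these contrasts, and DESeq2 also placed 10 and 14 past the threshold.

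The list held 6 genes of hormone synthesis. Among them jhamt, the methyltransferase of a late step, had medians of 149 CPM in queens, 150 CPM in control workers and 156 CPM in queen removal individuals, with a log2 fold change of -0.27 (SE 0.22, adjusted p = 0.393 by edgeR) for control workers minus queens. Farnesyl pyrophosphate synthase (LOC107073805), of the mevalonate route that feeds the hormone, rose with ovarian index by 0.32 per SD (SE 0.07, adjusted p = 0.0263 by edgeR) and with age by 0.26 (SE 0.08, adjusted p = 0.0239). For jhamt the slope per SD of age was 0.19 (SE 0.07, adjusted p = 0.0807 by edgeR).

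Among 5 genes of the hormone response, 3 were lower in control workers and 4 in queen removal individuals than in queens, beside 11.8% and 15% of all genes. The log2 fold change of Kr-h1 was -5.91 (SE 1.04, adjusted p = 1.11e-05 by edgeR) for control workers minus queens and -1.86 (SE 0.46, adjusted p = 0.001) for queen removal individuals minus queens. It was higher in queen removal individuals than in control workers by 4.05 (SE 0.94, adjusted p = 0.0351 by edgeR), a call that limma voom with nest as a random effect did not give (2.40, adjusted p = 0.526). For control workers minus queens, the gene with symbol dati stood at -1.17 (SE 0.14, adjusted p = 3.3e-10 by edgeR), and br, the Broad transcription factor of metamorphosis, at -0.39 (SE 0.10, adjusted p = 0.00179). Fkbp39, a nuclear FK506-binding protein, stood at -0.21 for queen removal individuals minus queens (SE 0.05, adjusted p = 0.000125 by edgeR). With age, Kr-h1 rose by 1.29 per SD (SE 0.33, adjusted p = 0.00616 by edgeR) and Fkbp39 by 0.09 (SE 0.02, adjusted p = 0.00472). With ovarian index Kr-h1 rose by 2.11 (SE 0.28, adjusted p = 1.43e-06 by edgeR), and with Elo score its slope was 1.10 (SE 0.27, adjusted p = 0.0761). The Elo slope of Kr-h1 passed with DESeq2 (1.12, adjusted p = 0.0494). It also passed with limma voom and nest as a random effect (1.80, SE 0.26, adjusted p = 6.36e-06). Without the wasp highest in Jhbp16 it did not (1.02, adjusted p = 0.407 by edgeR).

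The list held 10 receptors and factors of the ecdysone response, which juvenile hormone modulates. Against queens, 6 of them were lower in control workers and 8 in queen removal individuals, beside 11.8% and 15% of all genes. The ecdysone receptor partner usp stood at 0.11 (SE 0.12, adjusted p = 0.529 by edgeR) and Eip74EF, an ETS transcription factor, at 0.08 (SE 0.12, adjusted p = 0.64) for control workers minus queens, and neither passed the threshold in queen removal individuals. E75, a nuclear receptor, had a median of 507 CPM in queens, 319 CPM in control workers and 329 CPM in queen removal individuals, with a log2 fold change of -0.74 for control workers minus queens (SE 0.10, adjusted p = 8.17e-09 by edgeR). Eip93F, a transcription factor of late metamorphosis in flies, stood at -1.12 in the same contrast (SE 0.21, adjusted p = 2.73e-05 by edgeR). The ecdysone receptor Ecr stood at -0.66 (SE 0.15, adjusted p = 0.00075). Of 6 genes of insulin signalling, Akt, a kinase below the receptor, stood at -0.19 (SE 0.05, adjusted p = 0.00704 by edgeR). Of the 28, 3 rose with age (Kr-h1, Fkbp39 and the synthase), as did 3.18% of all genes, and 2 with ovarian index (Kr-h1 and the synthase), as did 0.185%. These counts were 2 and 1 by limma voom with nest as a random effect, and also 2 and 1 without the wasp highest in Jhbp16. With Elo score edgeR placed 0 of the 28 past the threshold, with 7 at an unadjusted p under 0.05. DESeq2, and limma voom with nest as a random effect, each placed 1 past it, Kr-h1 in both.

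The genes whose pattern was most like that of Jhbp16 were sought over the 96 libraries by Spearman's rho of log2 CPM, among 9714 genes with a mean of at least 1 CPM. The coefficients describe likeness only, and the groups and library depth are shared by all genes. The highest was LOC107064221 (uncharacterized), with rho = 0.682 over the 96 libraries and 0.586 after the group means were removed. Kr-h1 was 2nd with 0.645 and 0.504, LOC107064222 (alanine--glyoxylate aminotransferase 2 homolog) 3rd with 0.640 and 0.556, and LOC107064241 (uncharacterized) 4th with 0.635 and 0.502. LOC107064220 (uncharacterized) followed with 0.628 and 0.544.

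Several of these likest genes, though not all, lay together in 1 stretch of the genome. In the reference gene order LOC107064222, Kr-h1, LOC107064241 and LOC107064221 were neighbours in that order with no gene between, while LOC107064220 was not in the table. The other genes by likeness were LOC107065361 (cytochrome P450 4C1-like), of a family of oxidizing enzymes, with rho = 0.623 over the 96 libraries and 0.565 after removal of group means, bond (an elongase of very long chain fatty acids) with 0.593 and 0.520, and LOC107071360 with 0.588 and 0.508. Among the 58 queen removal individuals, with the day removed, the 5 highest were LOC107064222 (0.652), LOC107064221 (0.617), Kr-h1 (0.614), LOC107065361 (0.562) and LOC107064241 (0.544). The coefficients over the 58 are descriptions used for ranking, with no test, and include the gap between the 2 Kr-h1 sets.

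The likest genes were chosen over these same libraries by likeness to Jhbp16, which itself rose with ovarian index and Elo score. Their levels and slopes are therefore given here as values only, with no test. LOC107064221 stood at 19.7 ± 15.5 CPM in queens (SD, n = 26), 0.689 ± 0.665 CPM in control workers (SD, n = 12), 4.58 ± 8.25 CPM at day 3 (SD, n = 24) and 4.79 ± 6.24 CPM at day 12 (SD, n = 34). Its slope per SD of ovarian index was 1.55 (SE 0.20), beside 1.84 (SE 0.23) for LOC107064222 and 2.33 (SE 0.31) for LOC107065361. For the elongase bond, the slope per SD of Elo score was 0.98 (SE 0.14).

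Dissected brains can carry other tissue, and marker genes of 6 cell or tissue types were followed beside Jhbp16. Their summed levels overlapped between groups. Muscle markers (10 genes) summed to 3246 to 41599 CPM in queens (median 15434) and 1696 to 15843 CPM in control workers (median 8767). Photoreceptor markers (11 genes) summed to 215 to 17270 CPM in queens (median 2564) and 1412 to 7221 CPM in control workers (median 3998). Fat body markers (7 genes) summed to 4031 to 23921 CPM in queens (median 9263) and 3902 to 12836 CPM in control workers (median 8401), a sum carried by Tsf1, Vgn and apolpp. The mean log2 CPM of the same 7 genes was 4.54 ± 0.58 in queens (SD, n = 26) and 5.77 ± 1.11 in control workers (SD, n = 12). By their medians 4 of the 7 were higher in control workers, such as the storage protein Hex70a (127 against 3.02 CPM), and 3 were lower, such as the yolk protein precursor Vgn (1690 against 3807 CPM). Glia markers (4 genes) summed to 1135 to 5438 CPM over all groups. Neuron markers (9 genes) summed to at least 1775 CPM in every library, and the single exocrine gland marker Hbg3 ranged from 0 to 29474 CPM over all groups. Within queen removal individuals and within queens, the mean log2 level of the neuron, glia, muscle, photoreceptor and fat body lists had r with Jhbp16 between -0.223 and 0.227 (10 relations, lowest adjusted permutation p = 0.865 for r and 0.478 for rho). The part of these tissues in the difference between queens and control workers was not tested.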

How the data were processed

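The table deposited by the authors holds whole-number counts, 1 value per gene and library, that were not normalized. According to the sources, the authors removed ribosomal RNA reads, trimmed with Trimmomatic (0.36 in the submitters' processing notes, a later version in the study's reporting summary), aligned with STAR 2.7 to annotated transcripts and counted with StringTie2. The table had 11335 entries, of which 194 repeated an ID and were summed to 11140 genes. An entry without a name, 0.0216% to 0.0706% of the counts of a library, was left out. The highest correlation between 2 libraries was 0.983, and none was a copy. Genes with more than 20 counts summed over a group were kept (10794).

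Groups came from the labels. Contrasts used edgeR 4.0.16 in R 4.3.3 (TMM, quasi-likelihood test, Benjamini-Hochberg adjustment, threshold 0.05), with the 4 groups in 1 fit. Slopes in the 58 queen removal individuals had day as covariate. DESeq2 1.42.0, limma 3.58.1 (voom, nest as a random effect), RLE size factors, other filters, a replicate block and left-out nests were alternatives. edgeR was used as the main tool on raw counts in place of DESeq2. Single values used 100000 two-sided permutations (Python 3.11.15, scipy 1.17.1) on log2 CPM with a prior count of 2.

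Ovarian index, Elo score and nest came from the study's data on each wasp. For 1 wasp the nest in her name differs from the listed nest, which was used. Replicate numbers of the labels count the samples within a group, and the main fit did not use them as pairs. Symbols came from a RefSeq gene table (assembly Pdom_raw_medaka) that held 10144 of 11140 IDs and a symbol for 4065. Product names, for 4399 IDs, came from the study's tables. The genes and lists were chosen with earlier results of these data known. Named genes were Jhbp16, its family and pathway lists, 3 neighbours on each side in the gene table, the 8 genes of highest rho over the 96 libraries and the 5 of highest rho over the 58. LOC107065267, a neighbour outside that rule, was added after its values were seen. The split into 2 Kr-h1 sets, at the widest gap on the log scale, was chosen after the data were seen and replaces the test planned over all 58. Wasps of a nest shared their colony, so p-values over wasps measure the spread between wasps and not between colonies.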

Additional observations from a re-analysis of the deposited data

Results flagged for a closer look

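In 4 of the 9 nests with at least 4 sampled wasps, the wasp highest in Jhbp16 stood far from her nestmates. For normally spread values chance gives such a gap in about 1 of 20 groups, and for counts as low as these that share was not measured. In 1 of the 9, nest 69 of day 3, no wasp had a count, so it was not tested. In nest 47 of day 3, the highest wasp had 5.97 CPM and the next 0.502 CPM. In nest 51 of day 3, the values were 1.05 and 0.0742 CPM. In nest 45 of day 12, the highest had 1.08 CPM and the next had no count. In nest 67 of day 12, the values were 1.02 and 0.153 CPM. In each of these nests the highest wasp was the oldest that was sampled, at 30, 13, 16 and 22 days, which was looked up after the values were seen. The levels of many nestmates were at or below 3 counts, so the gaps carry counting error.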

How the results depend on the processing

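Depth was a limit, since most values of Jhbp16 outside queens were 0 to 3 counts. A strict filter, which asks every library of some group to exceed 20 counts, dropped the gene, so that setting gives no value for it. The sign of the day 12 minus day 3 value turned from -0.47 to 0.37 with limma voom and nest as a random effect, to 0.63 with the replicate block and to 0.99 without the highest day 3 individual, a setting chosen after the data were seen. Leaving out each nest gave -0.74 to 1.12, the latter without nest 47. With the replicate number as a block, the slopes of age, ovarian index and Elo score were 1.31, 1.32 and 1.11 and none passed the threshold. Few genes of any kind passed under the block. With age 3 of 10794 rose and 17 fell (343 and 545 in the main fit), with ovarian index 1 rose and 0 fell, and with Elo score 0 passed. Under the block the value of Jhbp16 was -3.96 for control workers minus queens and -2.40 for queen removal individuals minus queens, Jhbp2 no longer passed against queens (adjusted p = 0.0516 by edgeR), and the hormone pathway genes that rose with age or ovarian index no longer passed. The strict filter also dropped Kr-h1, and the synthase then no longer passed with ovarian index. Same-numbered samples of different groups had a median correlation of deviations of 0.0239 (27 of 110 pairs above 0.1). For differently numbered samples it was -0.00384 (565 of 3222 pairs above 0.1). The difference is small, and it was not tested. Under the block the slopes of LOC107065115 on age and of Jhbp2 on age, ovarian index and Elo score turned positive (0.21, 0.23, 0.13 and 0.03), none past the threshold. Leaving out each of the 18 nests gave slopes of 0.99 to 1.73 for age, 1.16 to 1.61 for ovarian index and 1.20 to 1.47 for Elo score, all past the threshold.

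The slope of ovarian index with age as a covariate (1.03), and that of Elo score without the highest wasp (0.99) or with age and ovarian index (0.96, both chosen after the data were seen), missed the threshold, and the cause was not tested. In the lower Kr-h1 set, r was 0.308 (unadjusted permutation p = 0.0495) after adjustment for age. In the higher set, r was 0.604 with wasps permuted within nests (permutation p = 0.0552). The 17 wasps of that set came from 13 nests, so few arrangements within nests were possible. That p-value could therefore take only coarse steps, and at 0.0552 the relation was not detectable within nests. In the same set, r was 0.446 after adjustment for age and ovarian index and 0.426 without the highest wasp. The number of genes that differed between queen removal individuals and control workers was 30, and it was 160 with DESeq2, 2 with limma voom, 98 with the replicate block, 0 by edgeR with the strict filter (1430 at an unadjusted p under 0.05) and 8 to 133 when nests were left out. The counts against queens stayed within 1.5 times the main count under every alternative run, as did the means of CPM without TMM scaling within 1 SD.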

Other observations

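Low counts of Jhbp16 were more often even than odd. Of the 96 libraries, 17 had exactly 2 counts, 1 had exactly 1 count and 3 had exactly 3. Over the whole table, 1.38% of values were 2, 0.558% were 1 and 0.823% were 3.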
